A study of Mus musculus with 8 samples.

Results

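The circadian clock genes described here are 10 transcripts, Dbp, Tef, Hlf, Nr1d1, Nr1d2, Per1, Per2, Per3, Arntl and Npas2, of the 24346 gene symbols listed for each library. All 10 were listed and above 0 FPKM (mapped fragments scaled by transcript length and by library) in every one of 8 RNA-seq libraries. They were taken by symbol and selected on measured values of these same libraries. Which values is not given, so their genotype difference, their 6 h difference and their level between the sets of libraries are all treated as used. All member values below are therefore a description.

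The libraries were made from mesenchymal cells of mouse large intestine, sorted for gp38 and high PDGFRα, without CD45, EpCAM, CD31 or Ly6C. A conditional knockout (cKO), labelled Foxl1cre; Cxcl12 flox/flox, gave 1 library, and its floxed control, labelled Cxcl12 flox/flox without Cre, gave 1 library. Both carry the floxed Cxcl12 alleles and both were untreated. In the cKO the Foxl1 promoter drives Cre, so deletion is limited to cells that have expressed Foxl1, and the sources used here do not give the share of sorted cells that had recombined. Cells of C57BL/6 mice exposed to 1 mM GABA together with 20 mM taurine gave 3 libraries at 6 h and 3 at 0 h, with no untreated 6 h library among the labels. The sources used here do not give age, time of day at collection, light schedule, culture or the number of animals per library, nor the strain of the cKO and control. The labels do not call the 3 libraries of a time separate animals or cultures, so a p-value covers the spread among these libraries, which may be technical.

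The mammalian clock is a transcription feedback loop. BMAL1, encoded by Arntl, pairs with CLOCK or with its paralog NPAS2 and activates genes through E-boxes, among them the Per and Cry genes, Nr1d1, Nr1d2 and Dbp. PER and CRY proteins inhibit that activator, while the nuclear receptors REV-ERBα (Nr1d1) and REV-ERBβ (Nr1d2) repress Arntl and Npas2 through ROR response elements, so that in most tissues Arntl and Npas2 peak when the E-box outputs are low. DBP, TEF and HLF are PAR bZIP factors that carry the rhythm to further genes by binding D-boxes, a site that the repressor NFIL3 also uses. Gut cells, fibroblasts included, run this loop. Below, the first 8 members are called output genes, and Arntl and Npas2 the antiphase genes.

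Promoter sequence of RefSeq (GRCm38.p6) was available for 9 of the 10 members, at 12 annotated starts, and the 250 bases before each start were searched on both strands for the E-box CACGTG, the D-box TTATGTAA or TTACGTAA, and the ROR element core TAGGTCA or TGGGTCA. The E-box was found at both starts of Tef and at 1 of 2 starts of Per1. That is 3 of the 12 member starts, in 2 of 9 members, against 6.02% of all 32851 starts. The D-box was found at 1 of the 12 member starts, that of Per3, where it occurs as 2 copies, against 0.931% of all starts. The ROR core was in none of the 12 windows and in 5.38% of all starts. The 3 windows below show these matches in capitals and run 5′ to 3′ on the strand of the gene, ending at the base before the annotated start. Tef is the downstream start, chr15:81811164-81811413, plus strand, with its E-box 138 to 133 bases upstream. Per1 is the upstream start, chr11:69098699-69098948, plus strand, with its E-box 166 to 161 bases upstream. Per3 is chr4:151044666-151044915, minus strand, with D-boxes 205 to 198 and 158 to 151 bases upstream.
Tef: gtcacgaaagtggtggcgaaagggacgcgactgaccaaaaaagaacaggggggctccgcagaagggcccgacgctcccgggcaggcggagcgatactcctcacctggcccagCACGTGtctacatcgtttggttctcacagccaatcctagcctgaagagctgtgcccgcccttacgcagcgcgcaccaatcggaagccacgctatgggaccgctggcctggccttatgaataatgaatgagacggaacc
Per1: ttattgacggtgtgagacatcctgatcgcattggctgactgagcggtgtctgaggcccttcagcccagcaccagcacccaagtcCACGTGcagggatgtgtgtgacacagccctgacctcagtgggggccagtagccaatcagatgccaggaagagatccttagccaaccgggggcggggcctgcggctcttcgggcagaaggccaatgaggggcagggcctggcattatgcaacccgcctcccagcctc
Per3: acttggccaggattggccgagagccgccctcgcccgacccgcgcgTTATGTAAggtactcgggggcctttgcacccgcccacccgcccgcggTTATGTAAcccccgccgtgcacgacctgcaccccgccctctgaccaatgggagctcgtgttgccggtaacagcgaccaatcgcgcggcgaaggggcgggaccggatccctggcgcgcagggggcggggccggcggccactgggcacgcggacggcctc
A match here is a run of letters and not a measured binding site, and the absence of a match in the other windows says only that these letters do not stand there.

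Over the whole series, total FPKM per library lay between 513001 and 579004, and the number of reads is unknown. The cKO and control libraries listed 20874 and 21006 genes above 0, while the 6 GABA and taurine libraries listed 14818 to 14974. Cxcl12, the floxed gene, stood at 739.7 FPKM in the cKO library and 1298 FPKM in the control library, and at 860.4 to 969.4 FPKM in the 6 other libraries. Of 8 mesenchymal markers, Pdgfra was at 152.3 FPKM or higher in all 8 libraries and overlapped between the sets. Pdpn stood at 91.7 and 96.1 FPKM in the cKO and control libraries against 280.7 to 303.7 FPKM in the 6 others, and Vim was lower likewise. The other 5 were higher in both genotype libraries. Foxl1 was at 11.6 and 10.2 FPKM in the cKO and control libraries and between 0.109 and 0.289 FPKM in the GABA and taurine libraries. Dcn stood at 6218 and 5741 FPKM against 288.0 to 363.9 FPKM in the same order, and Col1a1, Col1a2 and Col3a1 shared this direction. In bulk RNA, fewer cells of a type and less RNA per cell cannot be told apart, and this holds for every level below.

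**Figure D1:**
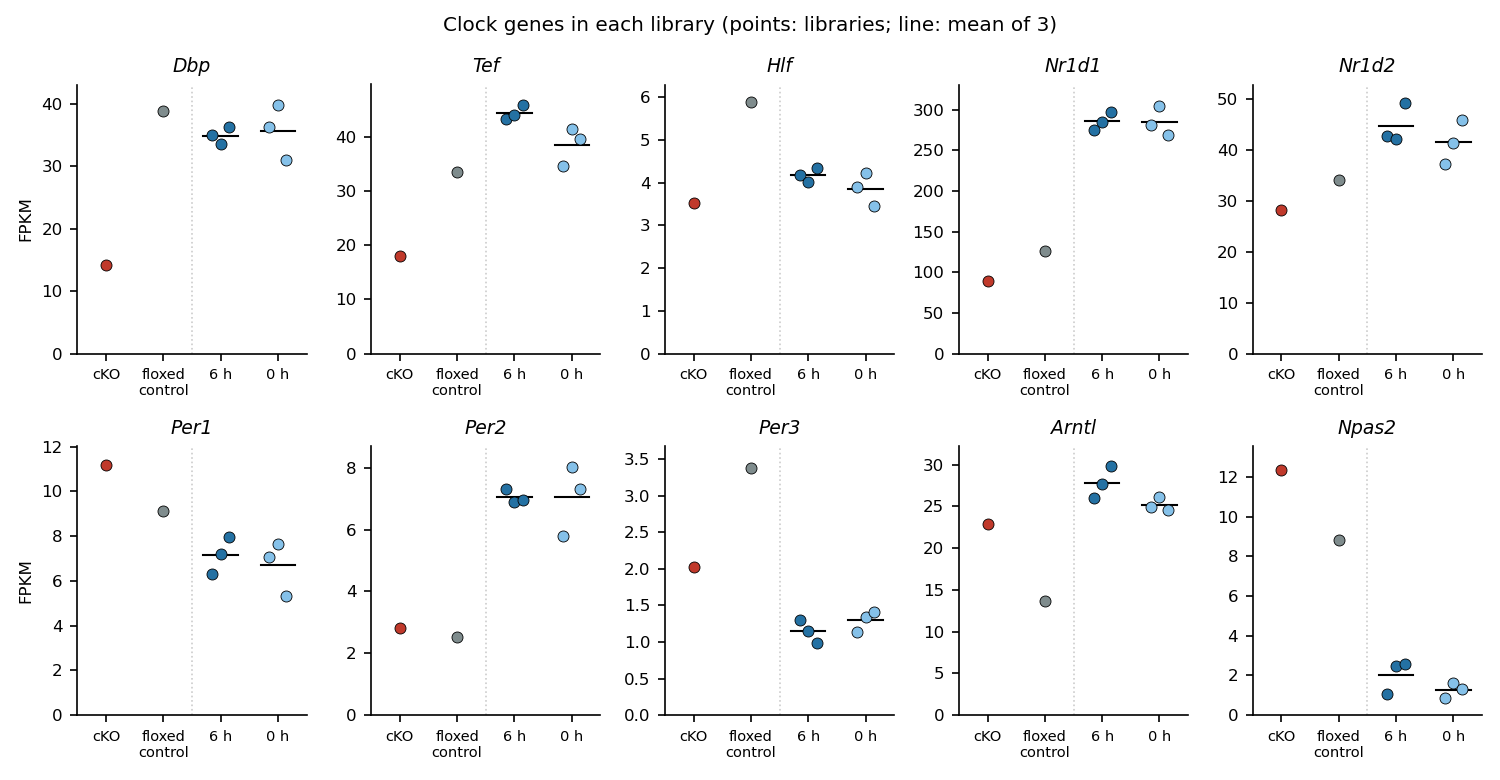
FPKM of each clock gene in all 8 libraries, as points, with cKO and floxed control left of the dotted line and the 3 libraries each at 6 h and 0 h right of it, where a line marks the mean. Dbp, Tef, Hlf, Nr1d1, Nr1d2 and Per3 are lower in the cKO than in the control library, Per1, Per2, Arntl and Npas2 are higher, and the 6 h and 0 h points overlap for all but Tef.

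The genotype comparison sets the cKO library against its floxed control. Most of the output genes were lower in the cKO library and both antiphase genes were higher, with Dbp furthest down and Arntl furthest up. Differences are given as log2(FPKM + 1) in the cKO minus the control library. With 1 library per genotype there is no test and no replicate check.

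Among the PAR bZIP factors, Dbp, found at chr7:45705088-45710203 (GRCm38, plus strand), stood at 14.1 FPKM in the cKO library and 38.8 FPKM in the control library. The cKO value is 36.4% of the control value, a log2 difference of -1.39. Tef (chr15:81802421-81826863, plus strand) stood at 18.1 FPKM in the cKO library and 33.6 FPKM in the control library, a log2 difference of -0.86. All 3 factors of this family were lower in the cKO library, in the order Dbp, Tef, Hlf. Hlf stood at 3.54 FPKM in the cKO library against 5.88 FPKM in the control library, a log2 difference of -0.60. For scale, the largest log2 difference between any 2 libraries of 1 time point in the GABA and taurine set was 0.35 for Dbp, 0.26 for Tef and 0.23 for Hlf. That spread belongs to other libraries and is not the spread between cKO animals.

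The REV-ERB genes were lower too, by smaller amounts. Nr1d1 (chr11:98767932-98775333, minus strand) stood at 89.3 FPKM in the cKO library and 125.8 FPKM in the control library, a log2 difference of -0.49. Its paralog Nr1d2, on chromosome 14, stood at 28.2 FPKM in the cKO library and 34.2 FPKM in the control library, a log2 difference of -0.27. The largest difference between libraries of 1 time point in the other set was 0.18 for Nr1d1 and 0.29 for Nr1d2, so the Nr1d2 difference is no larger than what such libraries show among themselves.

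The Period genes, whose products close the negative limb of the loop, did not share a direction. Per3 stood at 2.02 FPKM in the cKO library and 3.39 FPKM in the control library, a log2 difference of -0.54. Per1 stood at 11.2 FPKM in the cKO library and 9.11 FPKM in the control library, a log2 difference of 0.27. Per2 stood at 2.81 FPKM in the cKO library and 2.53 FPKM in the control library, a log2 difference of 0.11. The Per1 difference is below the 0.45 that separates libraries of 1 time point in the GABA and taurine set, and that of Per2 is below the 0.41 found there. For Per3 the difference exceeds the 0.22 found there.

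Both antiphase genes were higher in the cKO library. Arntl (chr7:113207465-113314126, plus strand) stood at 22.9 FPKM in the cKO library and 13.7 FPKM in the control library, 1.67 times the control value and a log2 difference of 0.70. Npas2 stood at 12.3 FPKM in the cKO library and 8.83 FPKM in the control library, a log2 difference of 0.44. The Arntl difference exceeded the 0.19 seen between libraries of 1 time point in the other set. For Npas2, which was at 2.55 FPKM or lower in that set, no spread was measured at the level of the genotype libraries.

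Set against the 14949 genes averaging 1 FPKM or more over both libraries, 1 of the 10 members, Dbp, was at least 2-fold lower, where 2.22% of all genes were. None was at least 2-fold higher, where 1.36% of all genes were. Of the 8 output genes 6 were lower by any amount, and both antiphase genes were higher, where 45% of all genes were lower and 55% higher. The median log2 difference was -0.51 over the 8 output genes and 0.57 over the 2 antiphase genes, beside 0.04 over all genes. Ranked from the largest fall among all 14949 genes, Dbp was at 141, Tef at 468 and Arntl at 14525. Among the 6435 genes averaging 10 FPKM or more, Dbp ranked 28 and Tef 35 from the largest fall. There Arntl ranked 77 and Per1 1078 from the largest rise, and Nr1d2 ranked 456 from the largest fall. As this contrast is treated as used in selecting the members, nothing is read from these shares and ranks.

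**Figure D2:**
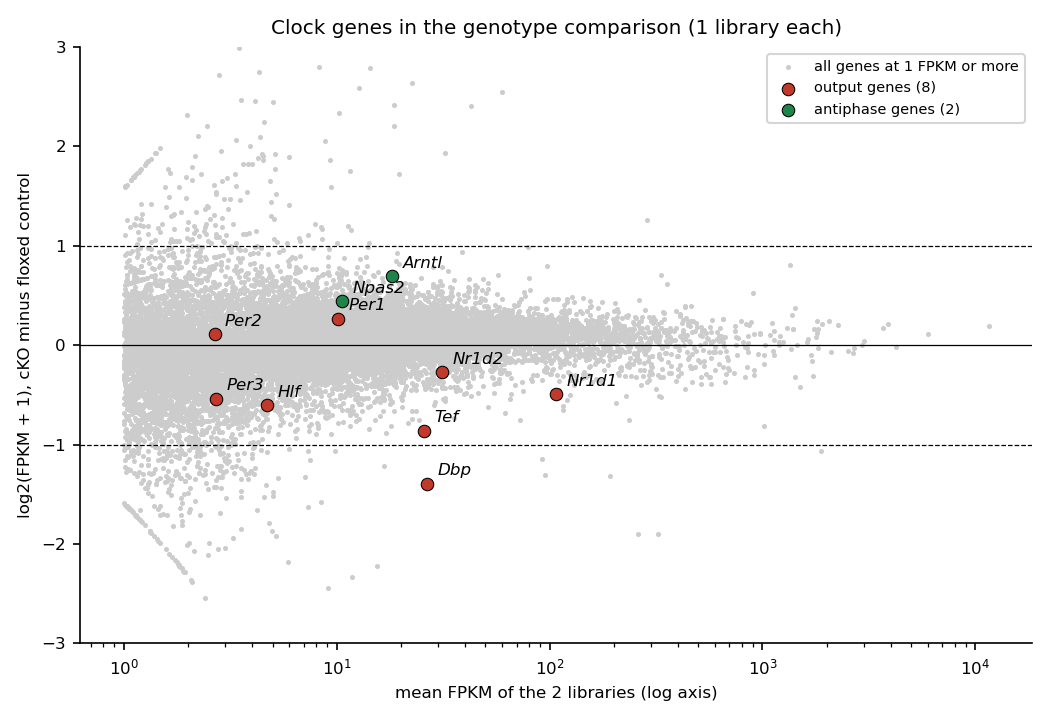
Each point is a gene, with its mean FPKM over the cKO and control libraries on a log axis and the log2(FPKM + 1) of the cKO minus that of the floxed control on the vertical axis, where dashed lines mark 2-fold and 57 genes beyond 3 on the log2 scale are not drawn. Dbp is the only clock gene past a dashed line. The antiphase genes Arntl and Npas2 and the output genes Per1 and Per2 lie above 0, while Tef, Hlf, Per3, Nr1d1 and Nr1d2 lie below it.

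The order of levels also differed between the libraries. FPKM is scaled by transcript length, so levels may be set between genes. Nr1d1 was the most abundant member in both libraries. In the cKO library it was followed by Nr1d2, Arntl, Tef and Dbp, and in the control library by Dbp, Nr1d2, Tef and Arntl. The ratio of Dbp to Arntl in FPKM was 0.619 in the cKO library and 2.83 in the control library, and the ratio of Nr1d1 to Arntl was 3.9 in the cKO library and 9.17 in the control library. Averaged as log2(FPKM + 1), the 8 output genes minus the 2 antiphase genes gave -0.55 in the cKO library and 0.49 in the control library, a difference of -1.04.

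Other genes of the loop, a list of 27 that holds no member, were set beside these. Of the 25 measured at 1 FPKM or more in this comparison, 17 were higher and 8 lower in the cKO library, with a median log2 difference of 0.11, and none was at least 2-fold apart. Cry1, a PER partner whose transcript is also repressed through ROR elements, stood at 9.53 FPKM in the cKO library and 6.01 FPKM in the control library, a log2 difference of 0.59. Ciart, a repressor of the CLOCK and BMAL1 pair, stood at 3.21 FPKM in the cKO library and 5.37 FPKM in the control library, a log2 difference of -0.60. Bhlhe41, a repressor that competes at E-boxes, stood at 1.09 FPKM in the cKO library and 1.95 FPKM in the control library. Clock itself stood at 8.59 FPKM in the cKO library and 7.49 FPKM in the control library, and Nfil3 at 39.1 FPKM and 34.7 FPKM in the same order of libraries. These 5 genes thus lay on both sides of 0, Cry1, Clock and Nfil3 higher and Ciart and Bhlhe41 lower in the cKO library.

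Markers of other cell types moved with the genotype. All 12 epithelial markers were higher in the cKO library, 8 of them at least 2-fold, and their summed level was 921.5 FPKM in the cKO library and 100.7 FPKM in the control library, with Epcam at 14.6 and 4.18 FPKM. The 9 leukocyte markers summed to 265.0 FPKM in the cKO library and 222.0 FPKM in the control library, with 8 higher. The 8 endothelial markers summed to 39.2 FPKM in the cKO library and 62.6 FPKM in the control library, with 6 lower. None of these markers was at 0 in either library. Of the 6 smooth muscle and pericyte markers 5 were lower in the cKO library, while their sum of 411.0 FPKM in the cKO library and 341.4 FPKM in the control library was carried by Acta2, at 381.6 FPKM in the cKO library and 304.8 FPKM in the control library. The 6 glial and neuronal markers summed to 7.14 FPKM in the cKO library and 9.35 FPKM in the control library, with 4 lower. Of the immediate early genes 11 of 12 were higher in the cKO library, and of the glucocorticoid-responsive genes 7 of 8, where 55% of all genes were. The median log2 differences of these 2 lists were 0.24 and 0.25, and no gene of either was at least 2-fold apart. The part of any of these in the clock values was not tested, and with 1 library each, genotype cannot be told apart from any other difference between the libraries.

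Reads from overlapping genes may touch the values of Dbp and Nr1d1, since the library kit does not mark strand. Of the exonic bases of Dbp, 18% are shared with the opposite-strand gene Sphk2, which stood at 9.11 FPKM in the cKO library and 15.4 FPKM in the control library. Of the exonic bases of Nr1d1, 8.55% are shared with the opposite-strand gene Thra, which stood at 24.0 FPKM in the cKO library and 24.3 FPKM in the control library. The part of such reads in the Dbp and Nr1d1 values was not tested. Shares for Tef and Arntl were 2.45% and 0.439%, with antisense transcripts that the tables do not list, and the other members shared no exonic base.

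The second comparison is of 6 h with 0 h in cells given GABA and taurine, where time and treatment cannot be told apart. The median log2 difference, 6 h minus 0 h, was 0.095 over the 10 clock genes, beside -0.00185 over all genes. It was 0.05 over the 8 output genes and 0.26 over the 2 antiphase genes. None of the 10 passed the test (limma on log2(FPKM + 1), adjusted over 10910 genes), and their mean log2 differences ran from -0.10 for Per3 to 0.38 for Npas2.

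Dbp stood at 35.0, 33.6 and 36.2 FPKM at 6 h, against 36.4, 39.8 and 31.0 FPKM at 0 h, and the 3 values at 6 h lay inside the range at 0 h. Tef stood at 43.3, 44.2 and 46.0 FPKM at 6 h, against 34.6, 41.5 and 39.7 FPKM at 0 h. Hlf stood at 4.18, 4.01 and 4.35 FPKM at 6 h, against 3.89, 4.23 and 3.45 FPKM at 0 h. Tef was the only member whose 6 h values all lay beyond the 0 h values, with a log2 difference of 0.20 (SE 0.08) and means of 44.5 ± 1.37 FPKM at 6 h and 38.6 ± 3.57 FPKM at 0 h (SD, n = 3 each).

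Nr1d1 stood at 275.0, 285.0 and 297.4 FPKM at 6 h, against 281.6, 304.3 and 268.8 FPKM at 0 h. Nr1d2 stood at 42.8, 42.1 and 49.3 FPKM at 6 h, against 37.2, 41.3 and 45.9 FPKM at 0 h. Both REV-ERB genes overlapped between the times, with log2 differences of 0.01 (SE 0.06) for Nr1d1 and 0.11 (SE 0.09) for Nr1d2. Per1 averaged 7.16 ± 0.821 FPKM at 6 h and 6.69 ± 1.21 FPKM at 0 h, Per2 7.05 ± 0.22 FPKM at 6 h and 7.04 ± 1.14 FPKM at 0 h, and Per3 1.14 ± 0.159 FPKM at 6 h and 1.30 ± 0.144 FPKM at 0 h (SD, n = 3 each). The 3 Period genes overlapped between the times as well.

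Arntl stood at 26.0, 27.7 and 29.9 FPKM at 6 h, against 24.9, 26.1 and 24.5 FPKM at 0 h, a log2 difference of 0.14 (SE 0.08). Npas2 stood at 1.04, 2.46 and 2.55 FPKM at 6 h, against 0.874, 1.63 and 1.33 FPKM at 0 h, a log2 difference of 0.38 (SE 0.23). For each, 1 library at 6 h, replicate 1, lay within the range at 0 h and the other two lay above it. The output genes minus the antiphase genes averaged 1.03 ± 0.25 at 6 h and 1.24 ± 0.07 at 0 h on the log2 scale (SD, n = 3 each), and the ranges overlapped.

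**Figure D3:**
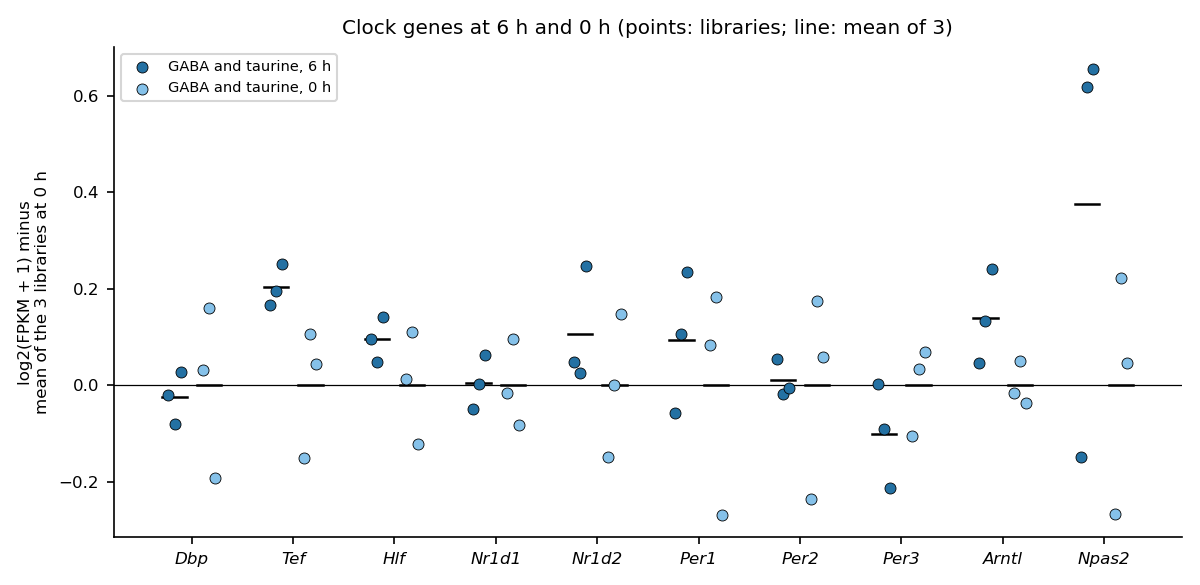
For each clock gene, log2(FPKM + 1) in each library minus the mean of the 3 libraries at 0 h, with 6 h libraries left of 0 h libraries and short lines for the means. Only for Tef do the 6 h points all lie above the 0 h points, and Npas2, the member second lowest in FPKM here, has the widest spread.

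Among all genes tested, 0.55% passed. At an unadjusted p under 0.05 the members held 1 gene, Tef, where 9.38% of all genes were, and 1 of 10 members, Tef again, had values at 6 h that did not overlap those at 0 h, where 15.3% of all genes did not. The number of genes that passed was 60, and it was 6, 3 and 115 without replicates 1, 2 and 3 of 0 h and 4, 2 and 41 without replicates 1, 2 and 3 of 6 h, and no member passed in any of these fits. Of the other clock pathway genes 24 were tested and 0 passed in limma, 0 also at an unadjusted p under 0.05, with a median log2 difference of 0.03 beside -0.00185 over all genes. Nfil3, at 30.9 FPKM at 6 h and 27.6 FPKM at 0 h on average, and Ccrn4l, the older symbol of the nocturnin gene, at 43.2 FPKM at 6 h and 41.7 FPKM at 0 h, were the 2 of them without overlap (adjusted p = 0.632 and 0.863 in limma). A p that misses the threshold does not show that these genes did not differ. Epithelial markers summed to 4.83 to 8.09 FPKM at 6 h and 2.63 to 3.80 FPKM at 0 h, with 9 of 12 higher on average at 6 h, and leukocyte markers to 3.44 to 9.87 FPKM at 6 h and 1.02 to 10.6 FPKM at 0 h, with 7 of 9 higher. Of these, 7 epithelial and 6 leukocyte markers were below 1 FPKM in all 6 libraries, where a direction says little. Krt8 averaged 2.06 FPKM at 6 h and 0.396 FPKM at 0 h (adjusted p = 0.0319 in limma). Lgals4 averaged 1.44 FPKM at 6 h and 1.14 FPKM at 0 h (adjusted p = 0.884 in limma).

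Within the 6 GABA and taurine libraries, Nr1d1 was the output gene with the highest level, and the genes most like it in pattern were named by Pearson's r of log2(FPKM + 1) as a description. Among 8002 other genes averaging 5 FPKM or more they were Spag9 (r = 0.986), Rtca (r = 0.977) and Myg1 (r = 0.964) over 6 libraries, and 37 genes had an r of at least 0.9. Among the members, Per1 (r = 0.898), Dbp (r = 0.838) and Hlf (r = 0.751) were most like Nr1d1, and Per3 (r = -0.393) least. The points mix both times, and the whole range of Nr1d1 in them is 268.8 to 304.3 FPKM.

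Levels were then set between the 2 genotype libraries and the 6 GABA and taurine libraries. Nr1d1 and Per2 were lower, and Npas2 higher, in the genotype libraries by at least 2-fold with no overlap, while Dbp and Hlf overlapped. The tables may have been scaled separately, and strain label, treatment and possibly culture differ between the sets, so no test was made and a cause cannot be told apart. In the values as deposited, the median log2 difference, genotype minus GABA and taurine libraries, was 0.36 over 15277 genes. Over the 10 members it was -0.50 in the same values. Median-ratio scaling between the 8 libraries moved the median over all genes to 0.57, so the member median is not to be set against that value.

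Nr1d1 stood at 89.3 FPKM in the cKO and 125.8 FPKM in the control library, against 268.8 to 304.3 FPKM in the GABA and taurine libraries. Per2 stood at 2.81 FPKM in the cKO and 2.53 FPKM in the control library, against 5.79 to 8.02 FPKM in the GABA and taurine libraries. The log2 differences, genotype minus GABA and taurine libraries, were -1.42 for Nr1d1 and -1.13 for Per2. With median-ratio scaling between the 8 libraries the Per2 difference was -0.93, under 2-fold, and that of Nr1d1 was -1.16.

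Npas2 stood at 12.3 FPKM in the cKO and 8.83 FPKM in the control library, against 0.874 to 2.55 FPKM in the GABA and taurine libraries, a log2 difference of 2.16. Arntl did the opposite, at 22.9 FPKM in the cKO and 13.7 FPKM in the control library, against 24.5 to 29.9 FPKM in the GABA and taurine libraries, a log2 difference of -0.55. In the values as deposited the antiphase genes therefore parted between the sets, although both were higher in the cKO than in the control library. With median-ratio scaling between the 8 libraries the Arntl difference shrank to -0.31, while that of Npas2 was 2.37. Per3 was higher in the genotype libraries, at 2.02 and 3.39 FPKM in the cKO and control libraries against 0.98 to 1.41 FPKM, and so was Per1, at 11.2 and 9.11 FPKM against 5.32 to 7.96 FPKM.

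Tef stood at 18.1 and 33.6 FPKM in the cKO and control libraries, against 34.6 to 46.0 FPKM in the GABA and taurine libraries, and Nr1d2 at 28.2 and 34.2 FPKM against 37.2 to 49.3 FPKM. The log2 difference of Tef was -0.72, and -0.47 with median-ratio scaling between the 8 libraries. That of Nr1d2 was -0.46, and -0.20 with this scaling. Dbp in the control library, at 38.8 FPKM, lay inside its range of 31.0 to 39.8 FPKM in the GABA and taurine libraries, and its cKO value of 14.1 FPKM lay below it. Hlf in the cKO library, at 3.54 FPKM, lay inside its range of 3.45 to 4.35 FPKM, and its control value of 5.88 FPKM lay above it. The direction of the mean difference between sets for these 2 genes thus rests on 1 library, as it is -0.56 for Dbp over both genotype libraries and 0.14 without the cKO library, and 0.16 for Hlf over both and -0.14 without the control library.

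In all, 2 of 10 members were at least 2-fold lower in the genotype libraries without overlap, where 15.6% of all genes were, and 1 of 10 was at least 2-fold higher, where 33.9% were. Without the control library the members past this fold were 5, Dbp and Tef being added. Of the other clock pathway genes, 25 were measured at 1 FPKM or more in a set, 4 were lower and 4 higher by this rule.

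**Figure D4:**
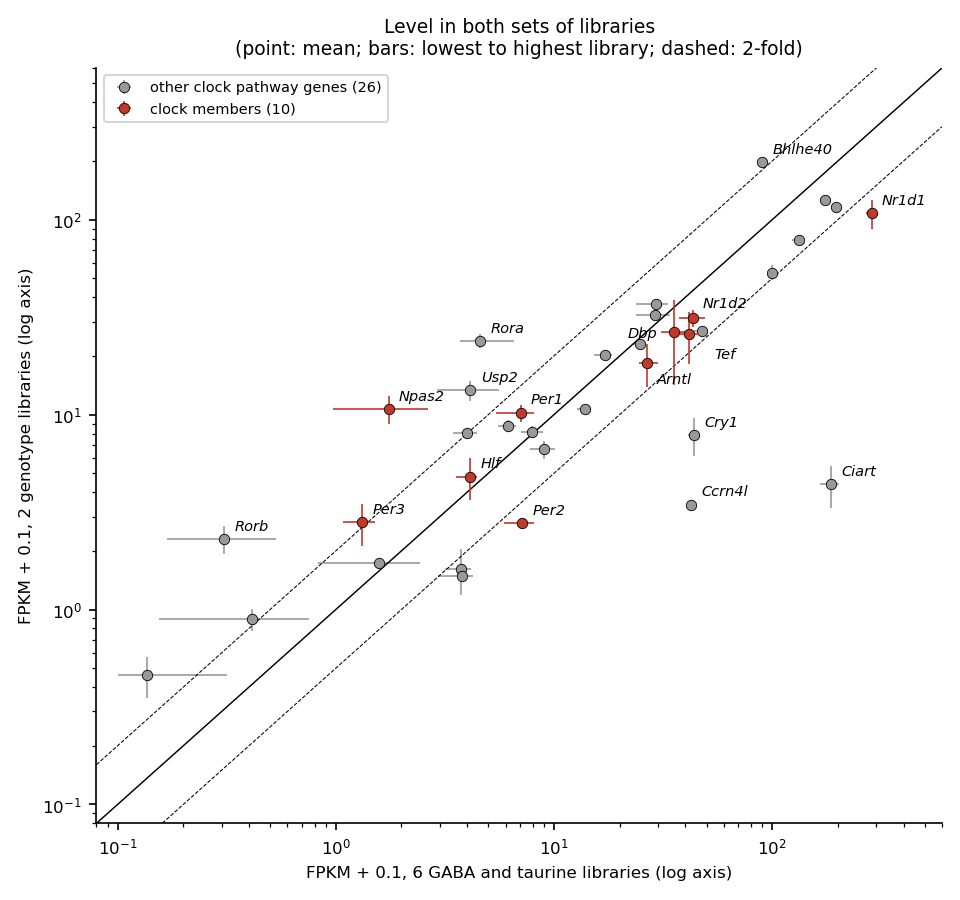
Mean FPKM + 0.1 in the 2 genotype libraries (vertical, log axis) against the 6 GABA and taurine libraries (horizontal, log axis), with bars from the lowest to the highest library, a solid line of equal levels and dashed lines at 2-fold. Nr1d1 and Per2 lie below the lower dashed line, Npas2 lies above the upper one, and Per3 lies just above it on this scale though not with a pseudocount of 1, and among the other clock pathway genes Ciart, Ccrn4l and Cry1 lie far below.

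Of the lower ones, Ciart stood at 3.21 and 5.37 FPKM in the cKO and control libraries against 166.3 to 202.1 FPKM in the GABA and taurine libraries, a mean 43.3 times as high in the GABA and taurine libraries. Cry1 stood at 9.53 and 6.01 FPKM in the cKO and control libraries against 41.2 to 46.7 FPKM in the GABA and taurine libraries. Ccrn4l stood at 3.38 and 3.33 FPKM against 41.0 to 44.6 FPKM in the same order of libraries. Ciart, Cry1 and Ccrn4l thus stood with Nr1d1 and Per2 in being higher in the GABA and taurine libraries. The 4 higher ones were Rora, an activator at the elements that REV-ERB represses, at 25.7 and 21.8 FPKM in the cKO and control libraries against 3.62 to 6.47 FPKM, its relative Rorb at 1.83 and 2.57 FPKM against 0.0683 to 0.432 FPKM, the E-box repressor Bhlhe40 at 191.7 and 201.1 FPKM against 85.8 to 93.3 FPKM, and the ubiquitin protease gene Usp2 at 14.8 and 11.7 FPKM against 2.82 to 5.51 FPKM. Clock overlapped between the sets, at 8.59 and 7.49 FPKM in the cKO and control libraries against 6.98 to 8.83 FPKM.

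Other genes also stood far apart between the sets. Of the 12 immediate early genes 10 were higher in both genotype libraries than in every GABA and taurine library, and the list summed to 12507 and 10992 FPKM in the cKO and control libraries against 2163 to 2547 FPKM in the GABA and taurine libraries. Fosl1 went the other way, at 3.29 and 1.86 FPKM in the cKO and control libraries against 160.0 to 200.5 FPKM in the GABA and taurine libraries, and Egr2 overlapped. All 12 epithelial markers were higher in both genotype libraries, with sums of 921.5 and 100.7 FPKM in the cKO and control libraries against 2.63 to 8.09 FPKM in the GABA and taurine libraries. Of the 9 leukocyte markers 8 were, with sums of 265.0 and 222.0 FPKM in the cKO and control libraries against 1.02 to 10.6 FPKM in the GABA and taurine libraries. The part of these in the clock levels was not tested.

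Setting the output arm against the antiphase arm in each library, the mean log2(FPKM + 1) of the 8 output genes was 3.61 in the cKO library, 4.08 in the control library, 4.21 to 4.28 at 6 h and 4.12 to 4.29 at 0 h. The mean of Arntl and Npas2 was 4.16 in the cKO library, 3.59 in the control library, 2.89 to 3.39 at 6 h and 2.80 to 3.08 at 0 h. The cKO library was the only 1 of 8 in which the antiphase mean exceeded the output mean. With Arntl alone in place of both antiphase genes, a choice made after the values were seen, the difference was -0.97 in the cKO library, 0.20 in the control library and -0.67 to -0.47 in the GABA and taurine libraries. The control library then stood apart as the only one above 0, so the place of the GABA and taurine libraries depends on Npas2, which was at 2.55 FPKM or lower there.

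**Figure D5:**
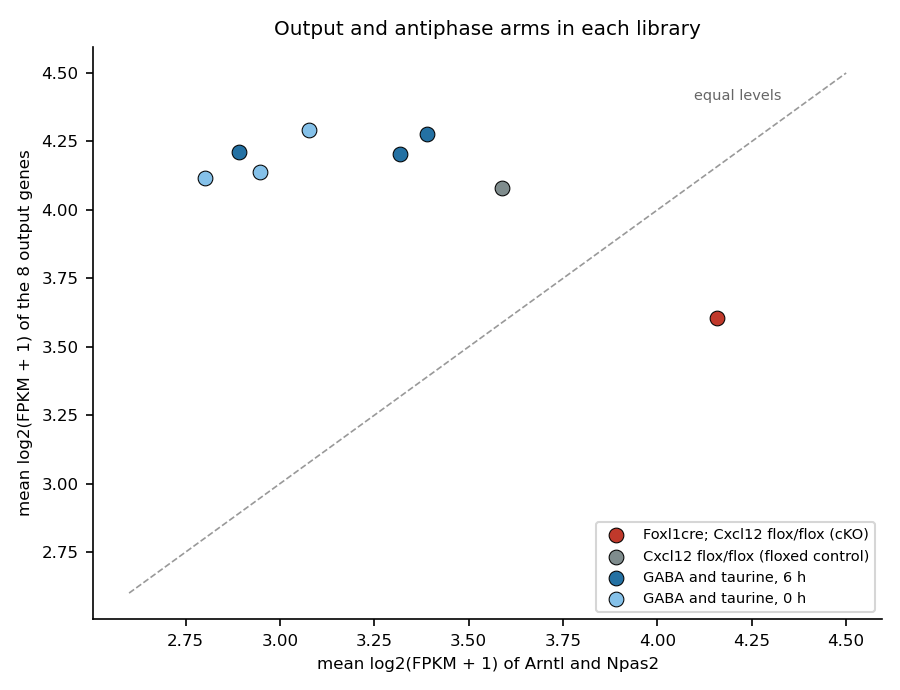
Mean log2(FPKM + 1) of the 8 output genes against that of Arntl and Npas2 for each library, with a dashed line of equal levels. The cKO library lies below the line at 4.16 and 3.61, and all others lie above it.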

How the data were processed

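RNA was sequenced from 8 libraries prepared with SMART-Seq HT and Nextera XT, per the labels' protocols. The authors deposited 1 table of FPKM per library, per the file headers, and the tools in the submitters' processing notes are Cuffdiff 2.2.1, TopHat2 2.1.1, SAMtools 0.1.18 and Bowtie2 2.2.8, with build mm10 and no roles. The sources used here do not give the annotation or any scaling between libraries. Depth is unknown. From the steps of genes under 0.5 FPKM the cKO library was about 1.25 times as deep as the control library, and the other libraries 0.824 to 0.959 times as deep as 0 h replicate 1. The step used held 24.0% of such genes for the cKO library and 7.60 to 9.53% for the others, so these depths are rough.

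Groups came from the labels. The time comparison used limma 3.58.1 (R 4.3.3, intensity trend) on log2(FPKM + 1) for 10910 genes averaging 1 FPKM or more, with Benjamini-Hochberg adjustment over all of them and a threshold of 0.05, two-sided. This scale understates changes of low genes. The genotype and level comparisons had no test, and 2-fold means a difference of at least 1 on this scale. The fit was tested on simulated data. The members and lists were chosen with earlier results of these data known. Named genes were the members and the fixed pathway list, of which Ccrn4l was matched by its older symbol, and the 3 genes most like the top output gene. Coordinates are from GENCODE M21 (GRCm38). Alternatives varied pseudocount, filter, scaling, trend, replicate block and libraries left out. The values of 1 gene of the pathway list, which is in its counts and medians, are not reported here.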

Additional observations from a re-analysis of the deposited data

How the results depend on the processing

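No clock member and no other clock pathway gene passed the time comparison in the main fit or in any of 11 alternatives (limma). Over all genes the 60 calls became 23 with the replicate block, 0 with no trend (960 genes at an unadjusted p under 0.05), 0 with no filter (1322 at an unadjusted p under 0.05) and 2 to 115 with 1 library left out. The deviations of same-numbered libraries correlated at -0.04, 0.01 and -0.03 over 10910 genes, so no pairing by replicate number was seen. With 3 libraries per time this check cannot exclude a pairing by animal or culture. In the genotype comparison Dbp alone among the members was at least 2-fold apart under all 4 alternatives, and each member measured kept its sign. Over all genes the 536 genes at least 2-fold apart were 1150 with a pseudocount of 0.1 and 77 among genes averaging 10 FPKM or more. Between the sets, 7559 genes met the rule on fold and overlap, and 3575 among genes averaging 10 FPKM or more. The members that met it numbered 3, and 3 to 5 with a genotype library left out. They numbered 4 with a pseudocount of 0.1. With median-ratio scaling between the 8 libraries they were 2, and also 2 among genes averaging 10 FPKM or more. The output minus antiphase difference by genotype, -1.04, was -1.26 without Per1 and Per2, an alternative added after seeing the data. Between the sets it was -1.17, -1.41 with a pseudocount of 0.1, and reversed to 0.19 with Arntl alone, also added after seeing the data, which leaves out Npas2 by construction. The cause of the other shifts was not tested. Unknown depth limits Per3 and Npas2, both under 3 FPKM in the GABA and taurine libraries.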
